A study of Mus musculus with 21 samples.

Results

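Biotin recycling and biotin-dependent carboxylation were examined through 7 genes, chosen by name: *Btd*, *Hlcs*, *Pcx*, *Pcca*, *Pccb*, *Mccc1* and *Mccc2*. *Btd* had been selected for a level that falls between ZT0 and ZT12 in both genotypes, and the other 6 because they belong to its pathway. The 7 were among 53801 genes counted, of which 20256 had enough reads to be tested. All 7 passed that filter, which asked for a total of at least 10 counts over the 21 mice.

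Biotin is a vitamin that mammalian cells cannot make. Inside the cell, holocarboxylase synthetase (*Hlcs*) attaches it to a lysine of each biotin-dependent carboxylase, where it carries carbon dioxide onto the substrate. When carboxylases are degraded, biotin is left bound to lysine as biocytin, and biotinidase (*Btd*), an enzyme that is mostly secreted, cleaves biocytin and returns free biotin. The mitochondrial carboxylases are pyruvate carboxylase (*Pcx*), which makes oxaloacetate, propionyl-CoA carboxylase (subunits *Pcca* and *Pccb*), which acts on the end product of isoleucine and valine breakdown, and methylcrotonyl-CoA carboxylase (subunits *Mccc1* and *Mccc2*), which acts in leucine breakdown. In each of the paired enzymes the first-named subunit carries the biotin.

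RNA was counted in CD138+ IgA+ plasma cells (IgA+ PCs), the antibody-secreting cells of the gut wall, sorted from the small intestine of 21 C57BL/6 mice, with 1 library per animal. Zeitgeber time (ZT) counts hours from lights on. Control mice carried floxed *Arntl* and no Cre (Mb1Cre-/- x Arntl fl/fl), with 6 sampled at ZT0 and 6 at ZT12. Knockout mice carried Mb1Cre+/- x Arntl fl/fl, with 4 sampled at ZT0 and 5 at ZT12. All 21 mice therefore had the floxed allele of *Arntl*, which encodes the clock protein Bmal1. The Mb1 Cre sits in the *Cd79a* locus and acts in the whole B cell lineage from its early stages, so the deletion is not limited to plasma cells. Ages were not given in the sources used here. Titles gave the genotype of each mouse, since for 8 of the 9 mice titled as knockout the separate genotype entry is that of the controls. Each comparison asks whether expression differs by time of day, by *Arntl* genotype, or by time of day to a different degree in the 2 genotypes.

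Libraries held 14471018 to 22785835 counts, and immunoglobulin genes took 51.5% to 63.6% of them. *Cd79a*, of which 1 copy carries the Cre, was between 163 and 276 CPM (counts scaled to a common library size by TMM) in the knockout mice and between 386 and 586 CPM in the controls. *Arntl* itself was at 6.83 to 8.36 CPM in control mice at ZT0 and at 4.08 to 6.47 CPM in knockout mice at ZT0, and at ZT12 at 4.00 to 5.56 CPM in controls and 3.11 to 4.93 CPM in knockouts. The counts cover whole genes and do not isolate the floxed part. The 8 plasma cell markers, among them the IgA heavy chain gene *Igha*, summed to 281770 CPM or more in each library. This sum does not give the level of each marker. The summed level of 16 epithelial markers ranged from 55.7 to 355 CPM in control mice at ZT0, 78.1 to 1066 CPM in control mice at ZT12, 76.1 to 89.0 CPM in knockout mice at ZT0 and 67.8 to 815 CPM in knockout mice at ZT12. Of the 15 epithelial markers tested 0 were called by time of day in either genotype, with median log2 changes of 2.45 in control and 2.74 in knockout mice. At an unadjusted edgeR p under 0.05, 9 of the 15 were higher at ZT12 in control mice and 1 in knockout mice. Averaged over the genotypes 0 were called, but all 15 had positive log2 changes, 13 of them under an unadjusted p of 0.05. Summed T cell markers were at 12.5 to 29.7 CPM, myeloid markers at 7.78 to 74.4 CPM and markers of other B cells at 12.6 to 27.5 CPM. No gene of the epithelial, T cell, myeloid or other B cell lists was at 0 in all libraries.

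The sequences just upstream of *Btd*, the member selected for its lower level at ZT12, of *Hlcs*, the member called lower at ZT12 in control mice, and of *Mmab*, the gene whose levels most resembled those of *Btd*, are given so that the motif counts can be read against them. They are RefSeq sequences of GRCm38.p6, written on the strand of the gene, and end at the last base before the gene as the count table annotates it. The windows are chr14:31640807-31641027 (plus strand, 221 bases) for *Btd*, chr16:94313572-94313813 (minus strand, 242 bases) for *Hlcs* and chr5:114444061-114444277 (minus strand, 217 bases) for *Mmab*. Capitals mark a GC box (GGGCGG) or a CCAAT box (CCAAT) read on either strand, with overlapping matches counted separately.

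Btd: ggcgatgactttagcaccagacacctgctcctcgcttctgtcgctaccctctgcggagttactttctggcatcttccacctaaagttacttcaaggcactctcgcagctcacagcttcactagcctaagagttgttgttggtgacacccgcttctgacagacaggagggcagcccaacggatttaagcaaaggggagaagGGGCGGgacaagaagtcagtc

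Hlcs: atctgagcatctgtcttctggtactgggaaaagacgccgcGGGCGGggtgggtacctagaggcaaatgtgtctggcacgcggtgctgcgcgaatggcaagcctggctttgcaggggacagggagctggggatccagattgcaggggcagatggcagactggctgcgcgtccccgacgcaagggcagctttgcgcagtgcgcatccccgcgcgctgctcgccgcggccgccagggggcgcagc

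Mmab: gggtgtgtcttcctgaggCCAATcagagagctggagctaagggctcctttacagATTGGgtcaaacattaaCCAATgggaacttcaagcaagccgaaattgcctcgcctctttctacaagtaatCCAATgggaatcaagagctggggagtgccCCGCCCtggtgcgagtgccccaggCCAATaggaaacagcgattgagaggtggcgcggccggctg

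RefSeq promoter windows, from 250 bases before to 50 bases after a start, were found for 7 of the 7 genes. Positions are counted from the RefSeq starts, which lie past the 3′ end of the sequences shown. The *Btd* windows of both annotated starts held 1 GC box, 50 and 57 bases before the start, and no CCAAT box. It is the box capitalised in the *Btd* sequence. The first of them shared 191 bases with the window of *Hacl1*, a gene on the opposite strand that encodes an enzyme of fatty acid alpha-oxidation. The *Hlcs* window held 1 GC box, 210 bases before the start, and a second annotated *Hlcs* start had 2 GC boxes and 1 CCAAT box. The E-box CACGTG, the sequence bound by Bmal1 with its partner Clock, was present in the windows of *Pcx* and *Mccc2* and not in those of *Btd* or *Hlcs*. Across 27025 promoter windows of this length, 7.24% held an E-box, 37.9% a CCAAT box and 35.9% a GC box. The D-box TTATGTAA was in 0.955% of all windows and the sterol element TCACNCCAC in 1.22%, and none of the windows of the 7 genes held either. These matches describe letters only.

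*Btd* was the most abundant of the 7 transcripts per length. Its mean over the 21 mice was 15.7 CPM per kilobase of annotated gene length (SD 2.98). *Pccb* followed at 5.64 (SD 0.933), *Mccc2* at 3.06 (SD 0.471), *Hlcs* at 1.96 (SD 0.539) and *Pcca* at 1.32 (SD 0.257), on the same scale. *Mccc1* at 0.640 (SD 0.112) and *Pcx* at 0.551 (SD 0.258) were lowest, and these neighbours did not differ beyond their spread. The step from *Hlcs* to *Pcca* was also close to the spread of *Hlcs*. These SDs span all 4 groups. The order depends on the annotated lengths, from 2353 bases for *Btd* to 10952 bases for *Mccc1*. Without scaling by length, *Mccc1* at 7.01 CPM was level with *Pcca* at 6.87 CPM, and *Pcx* was lowest at 2.55 CPM.

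*Btd*, which returns biotin from biocytin, had lower levels at ZT12 than at ZT0 in both genotypes. This is the pattern it was selected on, so its time of day values are described without a test. In the 6 control mice at ZT0 the lowest, median and highest levels were 37.8, 45.4 and 49.5 CPM, and in the 6 at ZT12 they were 26.7, 34.8 and 40.1 CPM. The control groups overlapped: 1 mouse at ZT12, at 40.1 CPM, was above the 2 lowest mice at ZT0, at 37.8 and 38.4 CPM. In knockout mice the 4 levels at ZT0 were 36.1, 45.7, 41.6 and 40.4 CPM, and the 5 at ZT12 were 28.4, 32.6, 30.3, 28.8 and 27.0 CPM. Every knockout mouse at ZT12 was below every knockout mouse at ZT0. The fitted log2 change was -0.37 (SE 0.10) in control mice and -0.48 (SE 0.11) in knockout mice, changes in level of -22.5% and -28.2%. The difference between the changes was -0.11 (SE 0.15), and averaged over the genotypes the change was -0.42 (SE 0.075). Of all genes tested, 2.63% had groups that did not overlap in knockout mice and 1.6% in control mice. The sorted cells were measured in bulk, so a smaller share of cells with the transcript and less of it per cell cannot be told apart.

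**Figure D1:**
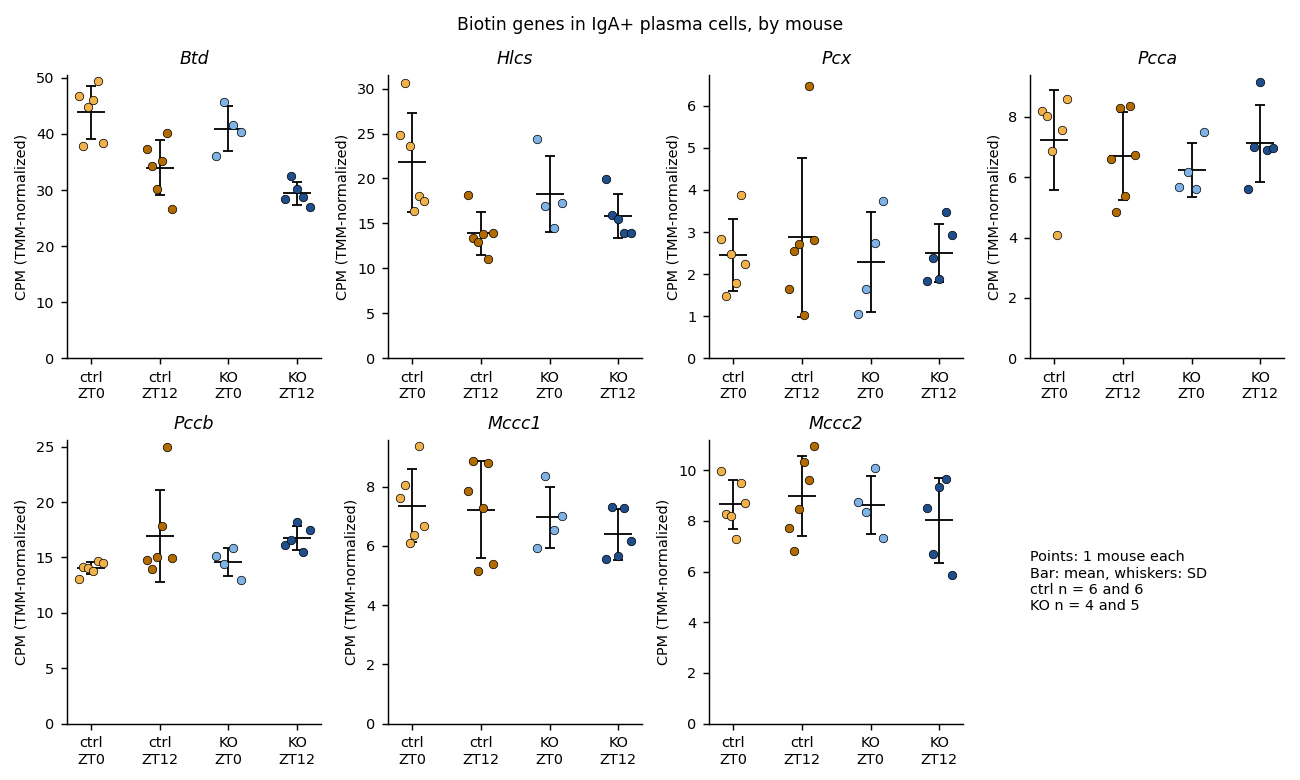
CPM (vertical axis, TMM-normalized) of the 7 biotin genes in control (ctrl) and knockout (KO) mice at ZT0 and ZT12; each point is 1 mouse, bars are group means and whiskers SDs. The *Btd* points of knockout mice at ZT12 lie between 27.0 and 32.6 CPM, below all 4 knockout mice at ZT0, and a single control mouse at ZT12 stands above the rest for *Pcx* and *Pccb*.

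The deposited table lists the libraries in 3 consecutive stretches of columns, each of which holds mice of all 4 groups. The labels do not say what the stretches are. A group has 1 to 3 libraries in a stretch, and in the first stretch knockout mice have 1 at each time. The differences in mean log2 CPM of *Btd*, ZT12 minus ZT0, are given in the order of the stretches. They were -0.26, -0.55 and -0.23 in control mice and -0.35, -0.42 and -0.50 in knockout mice. They split up the values on which *Btd* was selected and are no further support for its pattern.

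*Btd* was not called different between genotypes at either time. Mean levels at ZT0 were 43.9 CPM ± 4.75 (SD, n = 6) in control mice and 40.9 CPM ± 3.96 (SD, n = 4) in knockout mice, a log2 difference of -0.10 (SE 0.11, adjusted p = 0.936 by edgeR's quasi-likelihood test). At ZT12 control mice averaged 34.0 CPM ± 4.85 (SD, n = 6) and knockout mice 29.4 CPM ± 2.13 (SD, n = 5), a log2 difference of -0.21 (SE 0.10, edgeR adjusted p = 0.562). The groups overlapped at both times. Averaged over both times the difference was -0.15 (SE 0.075, edgeR adjusted p = 1.00).

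*Hlcs*, the enzyme that attaches biotin to the carboxylases, fell between ZT0 and ZT12 in control mice. The lowest, median and highest levels were 16.4, 20.8 and 30.6 CPM at ZT0 against 11.0, 13.6 and 18.2 CPM at ZT12. At ZT12, 5 of the 6 control mice were below the lowest control mouse at ZT0, and the remaining one, at 18.2 CPM, was above 3 of them. The fitted log2 change was -0.65 (SE 0.15, adjusted p = 0.0337, edgeR), and the level fell by 36.2%. *Hlcs* was the 1 member called of the 6 tested in this comparison, in which 1.73% of all genes were called. In knockout mice the ZT0 levels were 24.3, 16.9, 14.5 and 17.2 CPM and the ZT12 levels 19.9, 15.9, 15.5, 14.0 and 13.9 CPM. These groups overlapped, and the log2 change was -0.21 (SE 0.18, adjusted p = 0.790, edgeR). The difference between the changes, knockout minus control, was 0.44 (SE 0.23, edgeR adjusted p = 0.482), so the change was not shown to differ between genotypes. Averaged over genotypes the change was -0.43 (SE 0.12, edgeR adjusted p = 0.0777). The averaged change passed the threshold by DESeq2 (adjusted p = 0.0301) and with the column stretch as a covariate (adjusted p = 0.0220).

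The call of *Hlcs* in control mice was not stable. It was lost when the immunoglobulin share (-0.52, adjusted p = 0.491, edgeR) or the epithelial marker level (-0.52, adjusted p = 0.113) was added as a covariate, and when 7 single control libraries were left out in turn: replicates 1, 2 or 3 of ZT0, or replicates 2, 3, 4 or 5 of ZT12 (adjusted p between 0.0608 and 0.109 by edgeR). The immunoglobulin share was 51.5% to 53.3% in control mice at ZT0 and 53.3% to 63.6% at ZT12. These ranges meet only at 53.3%, so the covariate fit cannot separate the share from time of day in control mice. The part of the share in the result was not tested otherwise. With the share as a covariate 0 of all genes were called in control mice, against 350 without it, so the loss is not particular to *Hlcs*. The epithelial covariate left 135 genes called. Leaving out those 7 libraries in turn also lowered the calls over all genes, from 192 higher and 158 lower. The calls then ranged from 12 higher and 19 lower without ZT0 replicate 2 to 114 higher and 67 lower without ZT12 replicate 5. *Hlcs* levels also differed by stretch of columns. In the first stretch control mice averaged 26.3 CPM at ZT0 against 15.8 CPM at ZT12, in the second 17.2 and 13.4 CPM, and in the third, with 1 control mouse at ZT0, 17.5 and 12.5 CPM. The differences in mean log2 CPM, ZT12 minus ZT0, were -0.74, -0.36 and -0.50, lower at ZT12 in each. In knockout mice they were -0.29, 0.024 and -0.26. Among the control mice at ZT0, *Xist* was at 329 to 435 CPM in the first stretch and 0.776 to 1.61 CPM in the others. Stretch and sex therefore cannot be told apart in that group.

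**Figure D2:**
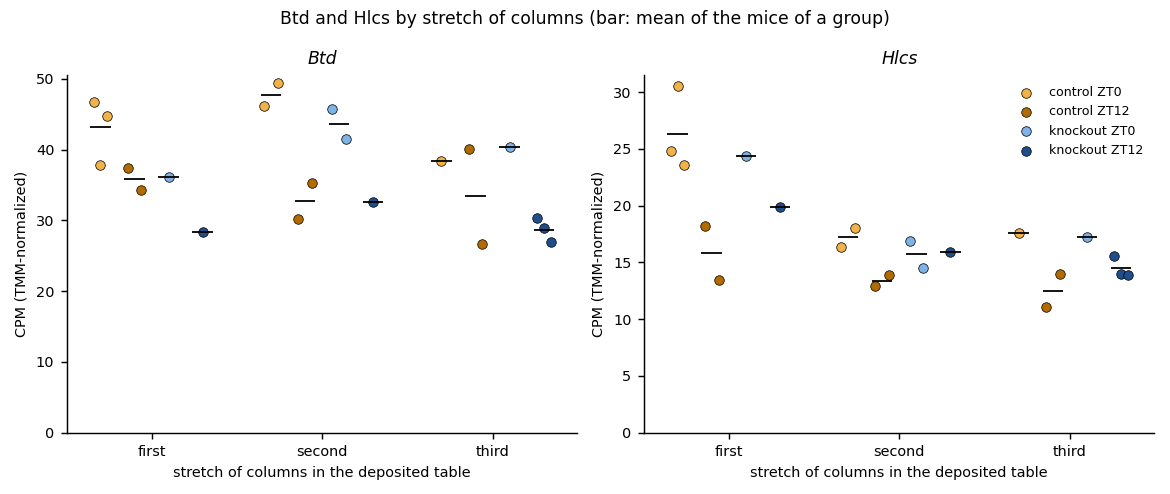
CPM (vertical axis, TMM-normalized) of *Btd* and *Hlcs* by the stretch of columns in which a library stands in the deposited table; each point is 1 mouse, colours give the group and bars the group's mean. *Hlcs* in control mice averaged 26.3 CPM at ZT0 in the first stretch against 17.2 and 17.5 CPM in the other stretches, with 1 such mouse in the third. *Btd* was selected for its level at ZT12, so its panel is a description.

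At ZT0 *Hlcs* averaged 21.8 CPM ± 5.50 (SD, n = 6) in control and 18.3 CPM ± 4.23 (SD, n = 4) in knockout mice, and at ZT12 13.9 CPM ± 2.36 (SD, n = 6) and 15.8 CPM ± 2.45 (SD, n = 5). The log2 differences between genotypes, -0.26 (SE 0.17) at ZT0 against 0.19 (SE 0.16) at ZT12, lie on opposite sides of 0. Neither was called by edgeR (adjusted p = 0.926 and 0.739).

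The carboxylase genes were not called by time of day. *Pcx*, whose product feeds oxaloacetate into the citric acid cycle, was the least counted member, with 13 to 89 counts per library. At 13 counts, in control ZT12 replicate 4, the unscaled level of 0.892 CPM had a 95% Wilson interval from 0.521 to 1.53, which covers counting error only. In control mice the lowest, median and highest *Pcx* levels were 1.48, 2.36 and 3.88 CPM at ZT0 against 1.04, 2.63 and 6.47 CPM at ZT12. In knockout mice they were 1.04, 1.66, 2.73 and 3.73 CPM at ZT0 against 1.85, 2.37, 1.88, 3.48 and 2.93 CPM at ZT12. The groups overlapped throughout. The log2 change was 0.23 (SE 0.35, adjusted p = 0.783, edgeR) in control mice and 0.12 (SE 0.41, adjusted p = 0.962) in knockout mice. Without control ZT12 replicate 5, at 6.47 CPM, the control change was -0.18, with no call.

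*Pccb*, the subunit of propionyl-CoA carboxylase that does not carry biotin, had the steadiest level of the 7 in control mice at ZT0. Its lowest, median and highest values there were 13.1, 14.1 and 14.7 CPM, a coefficient of variation of 4.10%. At ZT12 they were 13.9, 15.0 and 25.0 CPM. Knockout mice had 15.2, 14.4, 15.9 and 12.9 CPM at ZT0 against 16.1, 16.6, 18.2, 15.5 and 17.5 CPM at ZT12. Group means were thus higher at ZT12 in both genotypes, with overlap in each. The log2 change was 0.26 (SE 0.12, edgeR adjusted p = 0.224) in control mice and 0.20 (SE 0.13, edgeR adjusted p = 0.711) in knockout mice, and averaged 0.23 (SE 0.089, edgeR adjusted p = 0.206). None passed the threshold. The control change was 0.12 without control ZT12 replicate 5, the library with the highest epithelial marker sum (1066 CPM), and the averaged change was 0.087 with the epithelial marker level as a covariate.

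*Pcca*, the biotin-carrying partner of *Pccb*, had fitted changes of opposite sign in the genotypes, neither of them called. In control mice its lowest, median and highest levels were 4.08, 7.81 and 8.59 CPM at ZT0 against 4.86, 6.68 and 8.36 CPM at ZT12. In knockout mice they were 5.66, 6.19, 5.60 and 7.51 CPM at ZT0 against 5.61, 7.0, 9.15, 6.89 and 6.97 CPM at ZT12. The log2 change was -0.11 (SE 0.17) in control mice and 0.19 (SE 0.20) in knockout mice, with adjusted p = 0.792 and 0.845 by edgeR. Per length, *Pcca* stood at 0.273 ± 0.0627 (SD, n = 6) of *Pccb* in control mice at ZT0 and 0.216 ± 0.0504 (SD, n = 6) at ZT12, and at 0.231 ± 0.0548 (SD, n = 4) and 0.225 ± 0.0304 (SD, n = 5) in knockout mice. These ratios are uncertain, because 74878 bases of *Pcca* overlap *Ggact*, a gene on the opposite strand with 94 to 202 counts per library against 66 to 165 for *Pcca*, and strand use in the counting was not given in the sources used here.

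Neither subunit of methylcrotonyl-CoA carboxylase was called by time of day. *Mccc1*, the biotin-carrying subunit, had lowest, median and highest levels of 6.09, 7.13 and 9.37 CPM in control mice at ZT0 and 5.16, 7.58 and 8.87 CPM at ZT12. Its knockout levels were 5.93, 8.35, 6.54 and 7.01 CPM at ZT0 against 5.55, 7.30, 5.65, 7.28 and 6.15 CPM at ZT12. *Mccc2*, the other subunit, had control levels of 7.29, 8.48 and 9.95 CPM at ZT0 against 6.81, 9.04 and 10.9 CPM at ZT12, in the same order. Its knockout levels were 8.74, 8.35, 10.1 and 7.31 CPM at ZT0 against 8.51, 6.69, 9.35, 9.66 and 5.86 CPM at ZT12. The log2 changes in control and knockout mice were -0.026 (SE 0.16) and -0.12 (SE 0.18) for *Mccc1* and 0.052 (SE 0.14) and -0.10 (SE 0.17) for *Mccc2*, with adjusted p between 0.889 and 0.956 by edgeR. Per length, *Mccc1* was 0.210 to 0.218 of *Mccc2* in the means of the 4 groups. *Mccc1* overlaps *Gm43080* on its own strand, with 0 to 20 counts per library, and the antisense genes *Gm15952* and *Mccc1os*, with at most 15 and 7 counts.

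**Figure D3:**
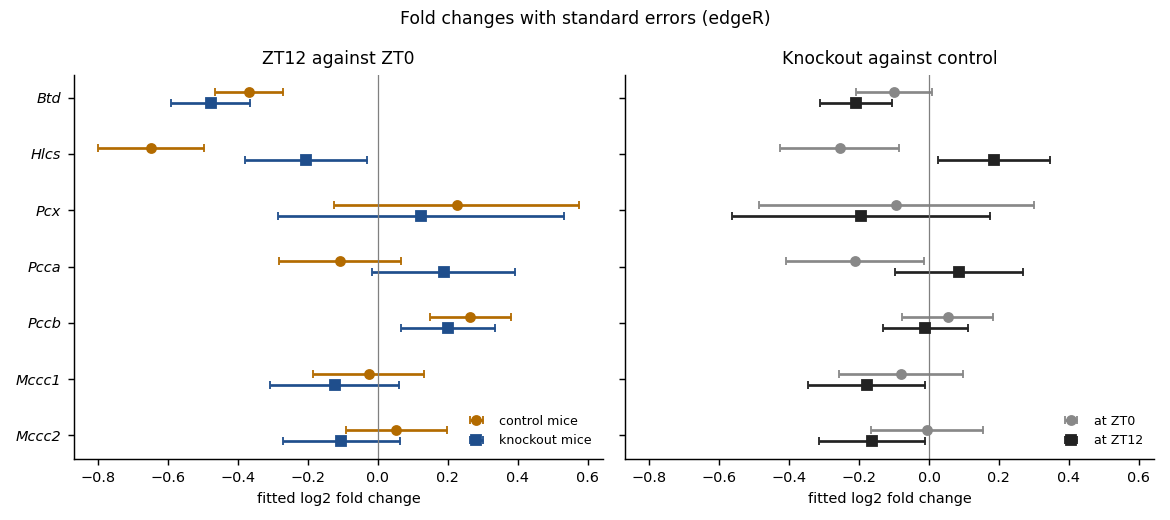
Fitted log2 fold changes (horizontal axis) of the 7 genes with 1 SE on each side, for ZT12 against ZT0 in control and knockout mice (left) and for knockout against control mice at ZT0 and ZT12 (right). *Btd*, *Hlcs* and *Mccc1* lie left of 0 in both genotypes on the left, at -0.37, -0.65 and -0.026 in control mice. *Pcx* and *Pccb* lie right of 0 in both, at 0.23 and 0.26 in control mice.

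Across the comparisons few genes of any kind were called. In knockout mice 0 of the 6 tested members were called by time of day, beside 0% of all genes. In the difference of the time of day changes the count was 0 of 6, again beside 0%. At an unadjusted edgeR p under 0.05, 1622 and 2191 of the 20256 genes passed in these comparisons and none of the 6 members did. DESeq2 called 47 and 4 genes, none a member. For both genotypes averaged, 0 of 6 members were called beside 0.805% of all genes. *Hlcs* and *Pccb* were under an unadjusted edgeR p of 0.05 there, as were 3122 of the 20256 genes.

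Between genotypes, 0 of 7 members were called at ZT0 (0.00987% of all genes), 0 of 7 at ZT12 (0.0148%) and 0 of 7 for both times averaged (0.0346%). With an unadjusted edgeR p under 0.05 there were 0, 0 and 1 of the 7, the last being *Btd*. Over all 20256 genes the same threshold passed 993, 1789 and 849. DESeq2 called no member either. The log2 differences of the 5 carboxylase genes ran from -0.21 to 0.05 at ZT0 and from -0.19 to 0.09 at ZT12. None of the 7 members had genotype groups that did not overlap, against 0.977% of all genes at ZT0 and 0.38% at ZT12.

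The genes around the 7 were counted in lists of the pathway. Biotin reaches cells through the sodium-dependent multivitamin transporter *Slc5a6*, and the cytosolic biotin enzymes are the acetyl-CoA carboxylases *Acaca* and *Acacb*. Of the 4 genes of this list (with *Slc16a1*), 0 were called in control mice between ZT0 and ZT12, 3 had negative log2 changes, and the median was -0.64, beside 0.0063 over all genes. *Slc16a1*, the gene with the highest level of the 4, went the other way. It averaged 30.7 CPM ± 2.26 at ZT0 and 33.2 CPM ± 3.17 at ZT12 (SD, n = 6 each). *Acaca*, the first enzyme of fatty acid synthesis, averaged 7.68 CPM ± 1.75 (SD, n = 6) at ZT0 against 4.32 CPM ± 2.12 (SD, n = 6) at ZT12, a log2 change of -0.83 (SE 0.35, edgeR adjusted p = 0.216). Its values ran from 4.83 to 9.42 CPM at ZT0 and from 0.486 to 6.03 CPM at ZT12, so a near-floor library enters the ZT12 mean. *Slc5a6* averaged 3.18 CPM ± 1.15 and 2.18 CPM ± 1.04 (SD, n = 6 each), a change of -0.55 (SE 0.29, edgeR adjusted p = 0.324). In knockout mice the list's median change was 0.19, *Acaca* changed by 0.26 (SE 0.40) and *Slc5a6* by 0.13 (SE 0.34), neither called. The differences between the changes had a median of 0.65 over the 4 genes, with 0 called.

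The vanins are the paralogs of *Btd* and release pantothenate rather than biotin. *Vnn3* had too few counts to be tested. *Vnn1* was near the floor, at 0 to 0.156 CPM in control mice at ZT0 and 0 to 1.67 CPM at ZT12, and was not called (edgeR adjusted p = 0.200). Biotinidase was thus the member of its family with the most counts, from 427 to 836 per library.

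Upstream of *Mccc1* and *Mccc2*, leucine is transaminated and oxidised. Of 12 genes of leucine catabolism 0 were called in control mice, with 7 positive and 5 negative log2 changes and a median of 0.048. *Ppm1k*, the phosphatase that activates the branched-chain ketoacid dehydrogenase, averaged 14.2 CPM ± 1.79 at ZT0 and 10.6 CPM ± 1.62 at ZT12 in control mice (SD, n = 6 each), a change of -0.42 (SE 0.12, edgeR adjusted p = 0.0782). *Bcat2*, the mitochondrial transaminase, changed by 0.45 (SE 0.17, edgeR adjusted p = 0.181). Upstream of *Pcca* and *Pccb*, 0 of 9 genes of isoleucine and valine catabolism were called, with a median of 0.10. The values with the smallest p there were 0.23 (SE 0.14) for *Acad8* and -0.20 (SE 0.13) for *Acadsb*, adjusted p = 0.413 and 0.422 by edgeR. In knockout mice 0 genes of these lists were called.

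Downstream of propionyl-CoA carboxylase, methylmalonyl-CoA is converted to succinyl-CoA by a mutase that needs adenosylcobalamin. Of 11 genes of this segment 1 was called in control mice: *Mmadhc*, which directs cobalamin to the mitochondrion or the cytosol, rose from 29.6 CPM ± 2.23 to 38.8 CPM ± 6.16 (SD, n = 6 each), a log2 change of 0.39 (SE 0.10, edgeR adjusted p = 0.0465). The list's median was -0.013. In knockout mice *Mmadhc* changed by 0.091 (SE 0.12, adjusted p = 0.880), and the difference between the changes was -0.30 (SE 0.15, edgeR adjusted p = 0.478). Around pyruvate carboxylase, 1 of 21 genes of the other fates of pyruvate and oxaloacetate was called in control mice. *Pdp2*, a phosphatase that activates pyruvate dehydrogenase, fell from 15.1 CPM ± 2.46 to 9.91 CPM ± 2.46 (SD, n = 6 each), a log2 change of -0.60 (SE 0.15, edgeR adjusted p = 0.0403). In knockout mice *Pdp2* changed by -0.13 (SE 0.17, adjusted p = 0.883), and the difference between the changes was 0.47 (SE 0.23, edgeR adjusted p = 0.455). The median of the list was 0.16 in control mice. With the immunoglobulin share as a covariate the changes were 0.25 for *Mmadhc* and -0.34 for *Pdp2*, and both calls were lost (edgeR adjusted p = 0.584 and 0.587). In that fit 0 of all genes were called in control mice, in which the share and time of day cannot be separated. The calls of *Mmadhc* and *Pdp2* were also lost with a block for the replicate number (edgeR adjusted p = 0.0803 and 0.0637), with only the control groups fitted, with the epithelial markers as a covariate, and in 16 and 10 of the 21 fits that left out 1 library. The call of *Mmadhc* was further lost with library size only (0.16, edgeR adjusted p = 0.366), with the length trend removed (0.25, edgeR adjusted p = 0.119), without a count filter (edgeR adjusted p = 0.0535) and with the *Xist* covariate (edgeR adjusted p = 0.0526).

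*Mmab*, the cobalamin adenosyltransferase that supplies the same mutase, had the levels most like those of *Btd*. Likeness was the Pearson correlation of log2 CPM over the 21 mice, for 8581 genes, and is a description only, since the mice share groups and stretches of columns. *Mmab* had r = 0.829, and other genes near the top of this ranking were *Rbm19* (0.825), *Aldoc* (0.790) and *Neil1* (0.779). With each mouse set against the mean of its own group, which removes the time of day and genotype differences, *Mmab* was again first at r = 0.785, and *Gm28884*, *Cd79a*, *Fam58b* and *Cript* followed at 0.701 to 0.723. In the same deviations *Aldoc* had r = 0.570, *Rbm19* 0.502 and *Neil1* 0.398.

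The lowest, median and highest *Mmab* levels in control mice were 9.74, 11.2 and 14.6 CPM at ZT0 against 6.44, 9.47 and 11.4 CPM at ZT12. In knockout mice *Mmab* was at 8.19, 13.7, 12.7 and 10.9 CPM at ZT0 against at 9.80, 9.67, 8.88, 7.98 and 8.85 CPM at ZT12. The groups overlapped in both genotypes. The log2 change was -0.34 (SE 0.14) in control mice and -0.33 (SE 0.17) in knockout mice. These values belong to a gene ranked by its likeness to *Btd* and are given without a test. The *Mmab* window shown above held 5 CCAAT boxes, which the *Btd* window lacked.

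**Figure D4:**
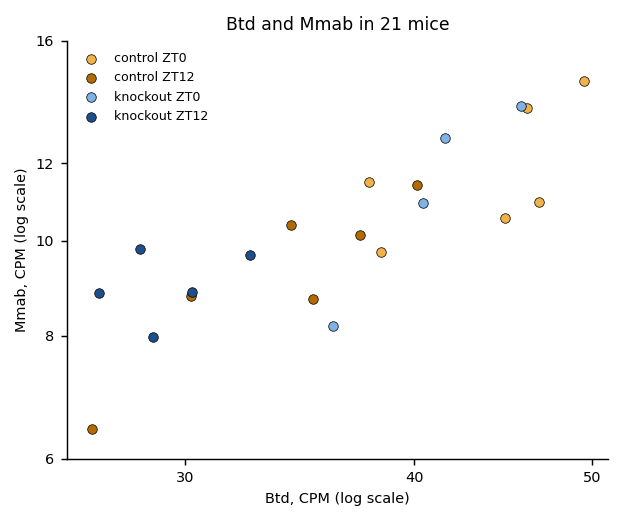
*Btd* (horizontal axis) against *Mmab* (vertical axis) in CPM on log scales, with 1 point per mouse and colours for the 4 groups. Points rise together over the 21 mice (r = 0.829), and the control mouse at ZT12 with the lowest *Btd*, 26.7 CPM, has the lowest *Mmab*, 6.44 CPM.

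Among the members themselves, *Btd* correlated most with *Mccc1* (r = 0.544 over the 21 mice, 0.651 in deviations from group means) and *Hlcs* was opposed to *Pcx* (r = -0.449, and -0.561 in deviations) and to *Pccb* (r = -0.544, and -0.311 in deviations). *Btd* and *Hlcs* had r = 0.367 over all mice and -0.256 once group means were removed. The subunits of one enzyme were weakly related: r was 0.201 for *Pcca* and *Pccb* and -0.0579 for *Mccc1* and *Mccc2*. These are descriptions over mice that share groups and stretches of columns.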

How the data were processed

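The values the authors deposited are raw read counts for each gene, not normalized, from poly-A RNA of IgA+ PCs sorted from 21 mice, prepared with an NEBNext Ultra kit and sequenced in paired ends on an Illumina NovaSeq. The submitters' processing notes name DESeq2. The aligner, counter and strand setting were not given in the sources used here, so counts of overlapping genes are uncertain. The table's gene coordinates are those of GRCm38.

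Genes whose counts summed to 10 or more were fitted in edgeR 4.0.16 (R 4.3.3) by robust quasi-likelihood with TMM factors and 4 group means. P-values were adjusted by Benjamini-Hochberg over all genes tested and called at 0.05. CPM values use TMM-scaled library sizes, and correlations use log2 CPM with a prior count of 2 among genes with a mean of at least 2 on that scale. P-values measure the spread between mice. The 46 pairs of libraries within a group all differed by more than sampling noise (chi-square per gene of 3.45 or more). The script was tested on simulated data.

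The genes named were the 7 members, called genes of each list (or the 2 with the smallest p in control mice), genes overlapping a member, and the 5 most like *Btd* by each measure. A gene that this rule names is not reported here. Members and lists were chosen with earlier results of these data known. Alternatives were DESeq2 1.42.0, its size factors, library size only, immunoglobulin genes removed, no filter, filterByExpr, a threshold of 0.01, fits on only the groups compared, a block for the replicate number, the immunoglobulin share, *Xist* or epithelial markers as covariates, a length trend removed (lowess, span 0.5, mean log2 CPM over 3), and each library left out. Covariates for the stretch of columns, alone or with the immunoglobulin share, and all alternatives for *Mmadhc* and *Pdp2*, were added after the data were seen.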

Additional observations from a re-analysis of the deposited data

Results flagged for a closer look

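In the 28 sets of values formed by 7 genes and 4 groups, 2 held a mouse far from the others of its group, and both were the same library, control ZT12 replicate 5. Its *Pcx* level was 6.47 CPM, against 2.81 CPM in the nearest and 1.04 CPM in the lowest mouse of the group. Its *Pccb* level was 25.0 CPM, against 17.9 CPM in the nearest and 13.9 CPM in the lowest. Chance alone marks about 1 set in 20. The epithelial marker sum of this library was 1066 CPM, the highest of the 21, and its immunoglobulin share was 59.1%. Knockout ZT12 replicate 5, with the next highest epithelial sum of 815 CPM, had *Pcx* at 2.93 CPM and *Pccb* at 17.5 CPM, within its group. The part of epithelial RNA in the *Pcx* and *Pccb* values was not tested.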

How the results depend on the processing

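Of 938 refitted log2 fold changes, 28 changed sign, 52 lost their call and 4 gained one. Only the control changes of *Hlcs*, *Mmadhc* and *Pdp2* had a call to lose. In the alternatives these calls were lost in 5, 9 and 5 of 14 fits, in that order. With 1 library left out they were lost in 7, 16 and 10 of 21 fits. The count of called members in control mice fell from 1 to 0 at a threshold of 0.01, with own groups only, with the length trend removed, and with the immunoglobulin share, the epithelial markers, or immunoglobulin share and column run (the stretch of columns) together as covariates. Over all genes the main fit called 350 in control mice. Own groups only gave 38, the epithelial markers 135 and the length trend removed 317. The averaged time of day count of members rose from 0 to 1 by DESeq2 and with the column run. Leaving out single libraries gave 0 to 1 members in these comparisons and 0 to 0 in the others. Library size only moved the median of all genes in control mice to -0.20 and the calls from 192 higher and 158 lower to 48 and 398. There *Btd* was -0.58 (-0.38 relative to that median), *Hlcs* -0.85 (-0.65) and *Mccc2* -0.15 (0.051), the *Btd* difference of the time of day changes (knockout minus control) 0.077 and the *Hlcs* averaged genotype difference 0.0050. With the epithelial covariate *Pcx* was -0.15 in control and -0.083 in knockout mice. With the column run it was -0.019 and -0.014, and the *Hlcs* averaged genotype difference 0.060. With immunoglobulin share and column run, the control changes were -0.29 for *Pcx*, 0.0083 for *Pcca* and -0.018 for *Mccc2*, the *Btd* difference of the time of day changes 0.0027 and the *Hlcs* averaged genotype difference 0.055. *Pcca* in control mice was 0.075 with the immunoglobulin share, and *Mccc1* 0.15 without the length trend. The causes were not tested.

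Replicate numbers did not pair the mice: over 28 pairs sharing a number the median correlation of deviations was -0.039. Libraries that share a column run did deviate together, with a median of 0.175 over 52 pairs against -0.0787 over the 112 pairs that do not. The model as reported has no term for the run. With the replicate block the calls in control mice went from 350 to 183, *Btd* was -0.37 and -0.49 in control and knockout mice, and *Pcx* in knockout mice was -0.013. No member's call changed, while those of *Mmadhc* and *Pdp2* were lost. Leaving out 1 library turned the sign of *Pcx* (control change -0.18 to 0.40, knockout change -0.12 to 0.46), *Mccc1* (-0.093 to 0.056) and *Mccc2* (-0.0084 to 0.12) in control mice, and of the *Hlcs* averaged genotype difference (-0.12 to 0.027). Numbers of genes called in control mice ranged from 0 (immunoglobulin share) to 1052 (DESeq2). A further 24 fold changes of members changed sign in 66 of 826 refits, with 0 calls. At 13 to 89 counts, *Pcx* is the member that depth limits most.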
